A study of Mus musculus with 8 samples.

Results

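The 6 genes described here are Sprr1a, Mustn1 and Ecel1, which were chosen by their large difference between MPTP and saline libraries of this same experiment, and Flrt3, Gap43 and Basp1, which were added to them as genes of axon growth. All 6 were found by symbol among the 21761 genes of the deposited count table, and all 6 were among the 15999 genes tested. The material was RNA bound to ribosomes and purified from dopaminergic neurons of the midbrain of C57BL/6 mice by translating ribosome affinity purification. In the MPTP group (4 libraries) mice had daily intraperitoneal MPTP-HCl at 30 mg/kg free base for 5 days, in the saline group (4 libraries) they had daily saline for the same 5 days, and tissue of both was taken 4 days after the last injection. MPTP is a neurotoxin that is converted in the brain to an inhibitor of mitochondrial complex I, which dopaminergic neurons take up. The name of the deposited table carries the abbreviation SN. The labels' protocol covers RNA of neurons from the SNpc and the VTA, combined or apart, without naming the one used here, so whether 1 or both regions were included is not known. The driver of the ribosome tag, the age and sex of the mice and any pooling of animals are not stated in the labels. Because each library is RNA from many cells, fewer cells of a type and less RNA per cell cannot be told apart.

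Neurons whose axons are damaged switch on a group of regeneration-associated genes, a response worked out mostly in sensory and motor neurons of rodents. Some of its products are made at very low levels until the injury, and others, such as the phosphoproteins of the growth cone, are also present in intact neurons that keep remodelling their terminals. Growth cone proteins of the second kind sit under the plasma membrane, where they bind calmodulin and acidic lipids and act on the actin cytoskeleton.

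The libraries held between 54192354 and 78892061 counts. Summed CPM (the count scaled to the depth of its library) of 13 dopaminergic markers lay between 9022 and 10700 in MPTP and between 8080 and 13500 in saline. The library saline 3 stood apart from its group: its dopaminergic sum was 8080 CPM, while saline 1, 2 and 4 had 12510 to 13500 CPM, and its oligodendrocyte sum (10 markers) was 1693 CPM, while theirs was 795.7 to 959.6 CPM. In MPTP the oligodendrocyte sum was 1155 to 1332 CPM. Values without saline 3 are therefore given beside those of the members and beside the medians of the lists of related genes.

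Upstream sequence is shown for the 4 members with the higher mean in MPTP, to let the sequence before their starts be compared. RefSeq sequence (GRCm38.p6) was at hand for 5 of the 6 members, and Gap43 is named only. The window searched was the 250 bases before the RefSeq start. In Ecel1 165, in Mustn1 57 and in Sprr1a 14 bases of that window lie in exons of the gene as GENCODE vM21 draws it, since its start is further upstream. Each line therefore gives only the bases before the GENCODE start, 5′ to 3′ on the strand of the gene: 236 for Sprr1a, 193 for Mustn1, 85 for Ecel1 and all 250 for Flrt3. The printed bases are chr3:92485896-92486131 (minus strand) for Sprr1a, chr14:30879007-30879199 (plus) for Mustn1, chr1:87156522-87156606 (minus) for Ecel1 and chr2:140671477-140671726 (minus) for Flrt3. Capitals mark matches, on either strand, to TGANTCA, the core of an AP-1 element, or to TGACNTCA, a form of the ATF and CREB element. The second motif was chosen after these sequences were seen.
Sprr1a: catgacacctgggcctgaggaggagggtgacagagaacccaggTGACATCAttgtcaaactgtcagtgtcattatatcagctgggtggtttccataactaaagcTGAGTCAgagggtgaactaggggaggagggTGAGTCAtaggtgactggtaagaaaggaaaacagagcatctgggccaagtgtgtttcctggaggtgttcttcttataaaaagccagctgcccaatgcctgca
Mustn1: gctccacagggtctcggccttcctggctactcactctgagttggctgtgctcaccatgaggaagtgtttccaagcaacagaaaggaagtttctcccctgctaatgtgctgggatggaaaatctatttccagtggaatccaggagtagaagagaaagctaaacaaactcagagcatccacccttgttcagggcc
Ecel1: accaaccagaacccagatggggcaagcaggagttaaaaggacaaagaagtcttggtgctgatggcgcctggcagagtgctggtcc
Flrt3: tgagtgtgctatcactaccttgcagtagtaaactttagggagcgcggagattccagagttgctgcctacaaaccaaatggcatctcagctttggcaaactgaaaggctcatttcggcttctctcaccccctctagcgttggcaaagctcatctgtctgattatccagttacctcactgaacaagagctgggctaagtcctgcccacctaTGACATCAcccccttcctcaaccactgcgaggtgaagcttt

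The whole Sprr1a window (chr3:92485882-92486131, minus strand) held TGANTCA at 2 places, with first bases 146 and 116 bases before the start, and TGACNTCA at 1 place, 207 bases before it. The Flrt3 window (chr2:140671477-140671726, minus strand) held TGACNTCA at 1 place, 41 bases before the start. The windows of Mustn1 (chr14:30879007-30879256, plus strand) and Ecel1 (chr1:87156357-87156606, minus strand) held neither, nor did that of Basp1 (chr15:25413765-25414014, minus strand). Of the 32851 windows of the same length in the RefSeq table, 6.75% held TGANTCA at least once and 0.338% held it at 2 or more places, and 7.49% held TGACNTCA. A CArG box, the element of serum response factor, was in none of the 5 windows and in 1.47% of all. These matches describe the letters of the windows and say nothing of binding. The Basp1 window was rich in G and C (78.8%), more so than 98.3% of the windows, whereas the other 4 lay between 49.6% and 58.4%, near the median of 52.4%.

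By GENCODE vM21 on GRCm38 all 6 genes are protein-coding. Sprr1a spans chr3:92483952-92485895 (minus strand), Mustn1 chr14:30879200-30881610 (plus), Ecel1 chr1:87147655-87156521 (minus), Flrt3 chr2:140650914-140671469 (minus), Gap43 chr16:42248442-42340651 (minus) and Basp1 chr15:25363277-25413764 (minus). None of their exonic bases lie in an exon of another annotated gene. None of the distinct 100-base windows of their transcripts (707 for Sprr1a, the fewest, and 4863 for Flrt3, the most) is present, on either strand, in a transcript of another gene. Reads had 100 bases, so no full-length read that matched these transcripts exactly could also match another annotated transcript exactly.

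Sprr1a encodes a small proline-rich protein that is best known as a precursor of the cornified envelope of skin, and it is also made by injured sensory neurons of rodents, where it promotes neurite growth. Its counts were 395, 359, 340 and 677 in MPTP 1 to 4 and 0, 1, 10 and 10 in saline 1 to 4. In CPM that was 4.82, 4.97, 5.03 and 8.97 in MPTP and 0, 0.0150, 0.159 and 0.190 in saline. The saline libraries were thus at or near the limit of detection, and MPTP 4 stood well above the other MPTP libraries. A count of 0 in saline 1 allows up to 0.0459 CPM, taking 3 counts as the limit.

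The log2 fold change of Sprr1a was 6.07 (SE 0.59). Over the group totals of 1771 counts in MPTP and 21 counts in saline the level was 70.3-fold higher in MPTP. The exact 95% interval of 45.9 to 113.9 covers the counting error of reads only. Without saline 3 the log2 fold change was 6.56, and without MPTP 4 it was 5.80. It was 6.67 without saline 4 and 5.65 without saline 1, so the size of the difference moved most with the saline library left out. Sprr1a passed the filter on low counts through its MPTP libraries: all 4 of them reached 0.147 CPM, against 2 of the 4 saline libraries.

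Relatives of Sprr1a were almost silent. In the list of 20 small proline-rich and cornified envelope genes, chosen without Sprr1a itself, 18 were in the table and only 1, Lor, had enough counts to be tested. Lor, the gene of loricrin, was at 17.1 ± 0.632 CPM in MPTP libraries, against 16.1 ± 0.169 CPM in saline libraries (SD, n = 4 each; edgeR adjusted p = 0.852). Sprr1b, the closest relative of Sprr1a by name, had 0 counts in all 8 libraries, as did Ivl, the gene of involucrin. Sprr2a1 had 2, 0, 0 and 2 counts in MPTP and 88, 2, 2 and 4 in saline, so that most of its counts were in saline 1, where Sprr1a was at 0. Among 10 keratinocyte markers, Krt14 and Krt5 did not exceed 0.0318 CPM on average in either group. Krt1 carried most of the summed level, with a mean of 24.2 CPM in MPTP and 24.5 CPM in saline. The summed level of the 10 was 31.2 to 42.2 CPM in MPTP and 32.8 to 40.5 CPM in saline. The sum of 42.2 CPM was that of MPTP 4, where Sprr1a was also highest. Krt1 was there at 30.4 CPM, against 20.4 to 23.6 CPM in MPTP 1 to 3, while Krt10 was lowest, at 2.33 CPM. Of the cornified envelope list, Tgm3 had 5, 10, 0 and 121 counts in MPTP and 2, 0, 72 and 9 in saline. The part of skin RNA in the level of Sprr1a was not tested.

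Mustn1 encodes a small nuclear protein first described in the musculoskeletal system. It had 1106, 881, 1035 and 1514 counts in the MPTP libraries and 20, 52, 30 and 19 counts in the saline libraries. Its levels were 13.5, 12.2, 15.3 and 20.1 CPM in MPTP and 0.306, 0.778, 0.476 and 0.361 CPM in saline. The lowest MPTP library was far above the highest saline library, and MPTP 4 was again the highest. The log2 fold change was 4.97 (SE 0.28), and 4.96 without saline 3.

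Since Mustn1 is known from muscle and vessel walls, muscle markers were set beside it. The summed level of 12 mural and smooth muscle markers was 27.3 to 40.1 CPM in MPTP and 25.8 to 40.8 CPM in saline. Acta2, smooth muscle actin, averaged 3.31 CPM with MPTP and 2.56 CPM with saline (log2 fold change 0.37, edgeR adjusted p = 0.811), and 6 of the 12 markers had a log2 fold change above 0. Of 10 skeletal muscle markers 4 had enough counts to be tested, and the summed level of the 10 reached at most 15.4 CPM in MPTP and 17.4 CPM in saline. Tnnc2 had 0 counts in every library, and Myod1 averaged 0 CPM in MPTP and 0.0159 CPM in saline. The fast myosin genes Myh1 and Myh4 had counts in some MPTP libraries and in no saline library. Myh1 had 37, 1, 2 and 0 counts in MPTP 1 to 4 and Myh4 had 20, 11, 4 and 0, so neither had a count in MPTP 4, where Mustn1 was highest. Tnnt3, a troponin gene, had 0, 0, 5 and 19 counts in MPTP 1 to 4 and 9, 4, 0 and 0 in saline, with the most in MPTP 4. Mylpf, a myosin light chain, averaged 1.23 CPM in MPTP and 0.725 CPM in saline (log2 fold change 0.77, edgeR adjusted p = 0.702). It was at 0.585, 1.97, 0.637 and 1.75 CPM in MPTP 1 to 4. In both lists the summed levels of the groups overlapped, and the part of muscle RNA in the level of Mustn1 was not tested.

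Ecel1 encodes a membrane metallopeptidase of the M13 family, which is also called damage-induced neuronal endopeptidase because nerve injury induces it in rat neurons. Its counts were 873, 582, 716 and 894 in MPTP and 86, 45, 132 and 38 in saline. In CPM it was at 10.7, 8.06, 10.6 and 11.8 in MPTP and at 1.31, 0.673, 2.10 and 0.723 in saline. The groups did not overlap, and saline 3 was the highest of the saline libraries. The log2 fold change was 3.09 (SE 0.31), and 3.50 without saline 3.

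The rest of the M13 family was measured in the same libraries. Of its 5 other genes with enough counts, none passed in edgeR's quasi-likelihood test or in DESeq2, and 2 had an unadjusted p under 0.05 with the higher level in MPTP. Over all genes tested, 4.28% were higher and 4.5% lower at an unadjusted p under 0.05. After adjustment edgeR called 0.075% higher and 0.0313% lower, and DESeq2 called 0.148% higher and 0.184% lower. Ece1 and Ece2, the endothelin-converting enzymes, had log2 fold changes of 0.19 (adjusted p = 0.556) and 0.23 (adjusted p = 0.545). Mme, neprilysin, had 0.12 (adjusted p = 0.898), Phex 0.54 (adjusted p = 0.711) and Mmel1 -0.35 (adjusted p = 0.809), and Kel was too low to test. The median of the 5 was 0.19 with 8 libraries and 0.24 without saline 3, where Phex was at 0.83. Per kilobase of exon, Ecel1 was at 2.94 ± 0.456 CPM in MPTP libraries, against 0.343 ± 0.190 CPM in saline libraries (SD, n = 4 each). In saline that level overlapped the range of Phex (0.117 to 0.353 CPM per kilobase). In MPTP every library had more Ecel1 than Mme (0.884 to 1.09 CPM per kilobase) and less than Ece1 (9.62 to 10.1 CPM per kilobase). Ecel1 is also known in motor and cholinergic neurons. Their 7 markers summed to 10.2 to 15.5 CPM in MPTP and 9.20 to 20.3 CPM in saline. The top saline value was in saline 3, and saline 1, 2 and 4 were at 9.20 to 10.6 CPM. MPTP 1, 2 and 4 lay above that range and MPTP 3 within it. The part of these cells in the level of Ecel1 was not tested.

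Flrt3 encodes a leucine-rich repeat transmembrane protein that binds latrophilins on other cells and the repulsive receptors of the Unc5 family, and it is induced in injured sensory neurons of rodents. It had 4223, 3029, 3636 and 4516 counts in MPTP and 2651, 2849, 2110 and 2333 counts in saline. In CPM it was at 51.5, 41.9, 53.8 and 59.8 in MPTP and at 40.5, 42.6, 33.5 and 44.4 in saline. MPTP 1, 3 and 4 lay above every saline library, while MPTP 2 lay below saline 2 and saline 4. The log2 fold change was 0.36 (SE 0.12), and 0.29 without saline 3, which was the lowest library.

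The partners and relatives of Flrt3 and genes linked to them made a list of 26 names. The names not in the table were second names of latrophilin and teneurin genes that were in it. All 19 genes of the list were thus in the table, and all 19 were tested. None passed in edgeR or DESeq2 with 8 libraries, and 4 had an unadjusted p under 0.05, all with the higher level in MPTP (4.28% of all genes tested were higher by that rule). Without saline 3 edgeR called 0.853% of all genes tested higher and 0.983% lower. In the list it called 2 higher, Unc5b (log2 fold change 0.72, adjusted p = 0.0341), a netrin receptor, and Fgfr1 (0.44, adjusted p = 0.0351), the growth factor receptor that FLRT proteins modulate. With 8 libraries these were at 0.46 (adjusted p = 0.519) and 0.35 (adjusted p = 0.392). Log2 fold changes of the list were above 0 in 15 genes and below 0 in 4, with a median of 0.09, where all tested genes had a median of 0.00056. Without saline 3 these medians were 0.23 and 0.0063. Flrt2 was at 36.0 ± 5.34 CPM in MPTP libraries, against 30.0 ± 3.75 CPM in saline libraries (SD, n = 4 each; log2 fold change 0.26, adjusted p = 0.556), and Flrt1 had a log2 fold change of 0.15 (adjusted p = 0.747). Per kilobase, each library had more Flrt3 (8.62 to 12.3 CPM in MPTP, 6.89 to 9.12 CPM in saline) than Flrt2 (3.85 to 5.50 CPM in MPTP, 3.46 to 4.52 CPM in saline).

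Gap43 encodes the growth-associated protein that protein kinase C phosphorylates and that binds calmodulin at the membrane of the growth cone. It had 63614, 58361, 56141 and 62439 counts in MPTP and 57547, 63409, 47709 and 44746 counts in saline. In CPM it was at 775.8, 808.0, 831.2 and 827.4 in MPTP and at 879.8, 948.4, 757.5 and 851.2 in saline. The MPTP values lay close together, with an SD of 25.4 CPM, and the saline values held both the highest and the lowest of the 8. The log2 fold change was -0.08 (SE 0.09). Gap43 ranked 95th of the 21761 genes by mean CPM in saline.

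Basp1 encodes the myristoylated protein also called CAP-23, which shares with Gap43 and Marcks the binding of calmodulin and of acidic lipids under the membrane. It had 33087, 34657, 28775 and 35502 counts in MPTP and 33479, 34954, 25113 and 26801 counts in saline. In CPM that was 403.5, 479.8, 426.0 and 470.5 in MPTP and 511.9, 522.8, 398.7 and 509.8 in saline. Saline 3 was the lowest of the 8 libraries, and the other 3 saline libraries were the highest. The log2 fold change was -0.13 (SE 0.10).

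Saline 3 weighed on both growth cone genes. Without it, the log2 fold change was -0.14 for Gap43 and -0.21 for Basp1, and in each gene all MPTP libraries lay below the 3 saline libraries left. Of the genes tested, 7.61% were arranged like this without saline 3. Summed dopaminergic markers had the same arrangement, at 9022 to 10700 CPM in MPTP and 12510 to 13500 CPM in the 3 saline libraries, and their part in the result was not tested.

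**Figure D1:**
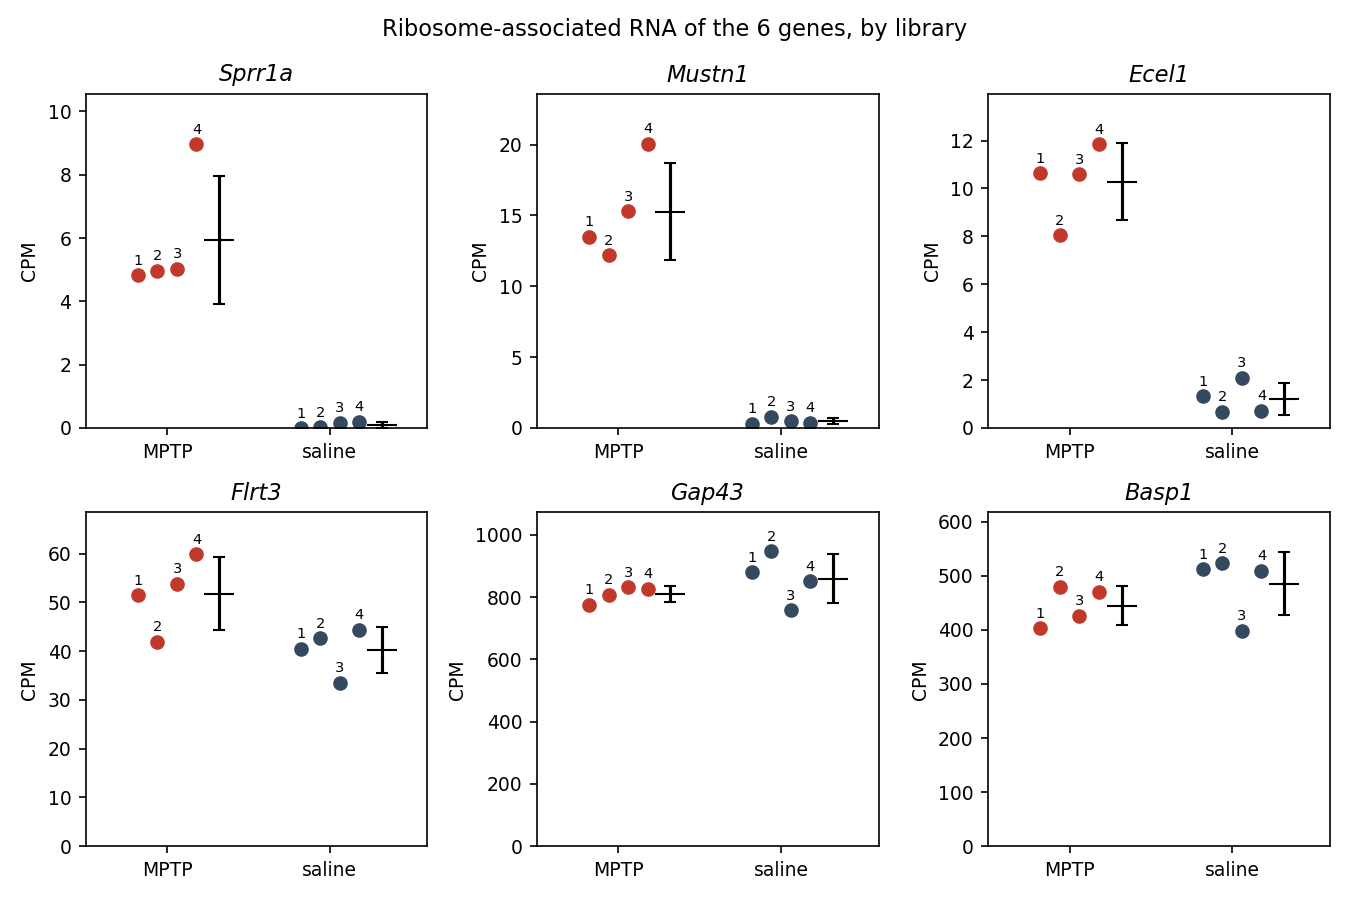
Level of each of the 6 genes in CPM (linear axis from 0) in the 4 MPTP and the 4 saline libraries; points are libraries with their replicate number, and the bar beside them is the mean with its SD. Sprr1a, Mustn1 and Ecel1 have no overlap between groups, MPTP 4 is the highest library for Sprr1a, Mustn1, Ecel1 and Flrt3, and Gap43 and Basp1 overlap.

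Within the MPTP group the 4 genes with the higher MPTP mean were all highest in MPTP 4. Relative to the MPTP mean, MPTP 4 was at 1.51 for Sprr1a, 1.31 for Mustn1, 1.15 for Ecel1 and 1.16 for Flrt3. MPTP 2 was the lowest for Mustn1 (0.799), Ecel1 (0.783) and Flrt3 (0.810), and MPTP 1 was the lowest for Sprr1a (0.810). Gap43 and Basp1 did not have this order: MPTP 4 was at 1.02 and 1.06. MPTP 4 also had the highest summed dopaminergic markers of its group, 10700 CPM against 9022 to 9600 CPM, and the lowest oligodendrocyte sum, 1155 CPM against 1254 to 1332 CPM. The part of these in the order of the libraries was not tested. The spread within MPTP, as SD over mean, was 33.9% for Sprr1a, 22.6% for Mustn1, 15.5% for Ecel1, 14.4% for Flrt3, 8.15% for Basp1 and 3.13% for Gap43.

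Levels between genes were compared per kilobase of exon, with lengths from GENCODE, since the annotation the authors counted on is not stated. In MPTP the order was Gap43 (532.2 ± 16.6 CPM per kilobase), Basp1 (221.5 ± 18.1), Mustn1 (12.4 ± 2.79), Flrt3 (10.6 ± 1.53), Sprr1a (7.38 ± 2.50) and Ecel1 (2.94 ± 0.456), each as mean ± SD with n = 4. In saline it was Gap43 (564.2 ± 52.0 CPM per kilobase), Basp1 (241.8 ± 29.0), Flrt3 (8.27 ± 0.981), Mustn1 (0.389 ± 0.170), Ecel1 (0.343 ± 0.190) and Sprr1a (0.113 ± 0.121). Mustn1 and Flrt3 overlapped in MPTP, as did Flrt3 and Sprr1a, and in saline Mustn1, Ecel1 and Sprr1a followed each other with overlapping ranges. Even after MPTP the mean of Sprr1a stayed far under that of Gap43.

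**Figure D2:**
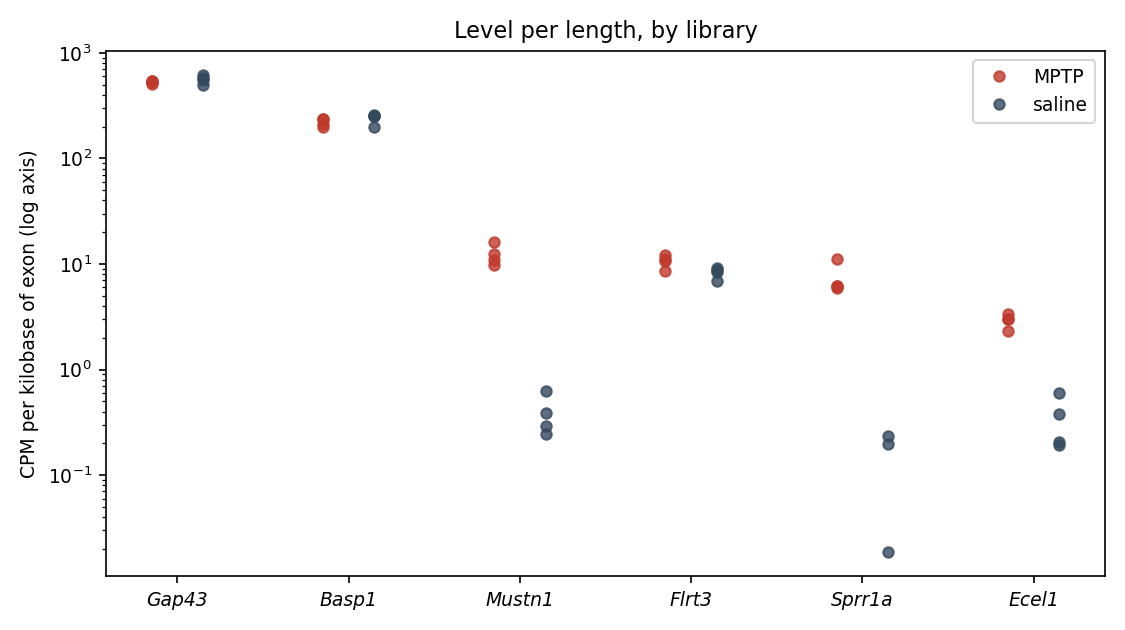
Level per kilobase of exon, in CPM on a log axis, for each gene in the 4 MPTP and the 4 saline libraries; each point is a library, and the saline library with 0 counts of Sprr1a is not drawn. Gap43 and Basp1 lie at 198.5 CPM per kilobase or more in both groups, while Mustn1, Sprr1a and Ecel1 reach 2.30 CPM per kilobase or more in MPTP and stay at 0.629 or less in saline.

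Of the 6 members, Sprr1a, Mustn1 and Ecel1 had every MPTP library above every saline library, an arrangement seen in 327 of the tested genes (2.04%). The comparison of MPTP with saline is what led to the choice of members, so nothing is read from that count and no test of it is given for them. All but one of the settings tried gave each member a value: Sprr1a was not tested where a mean of 5 CPM was required. Log2 fold changes lay between 5.65 and 6.67 for Sprr1a, 4.81 and 5.32 for Mustn1, 2.89 and 3.50 for Ecel1, 0.29 and 0.45 for Flrt3, -0.14 and -0.03 for Gap43 and -0.21 and -0.08 for Basp1.

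**Figure D3:**
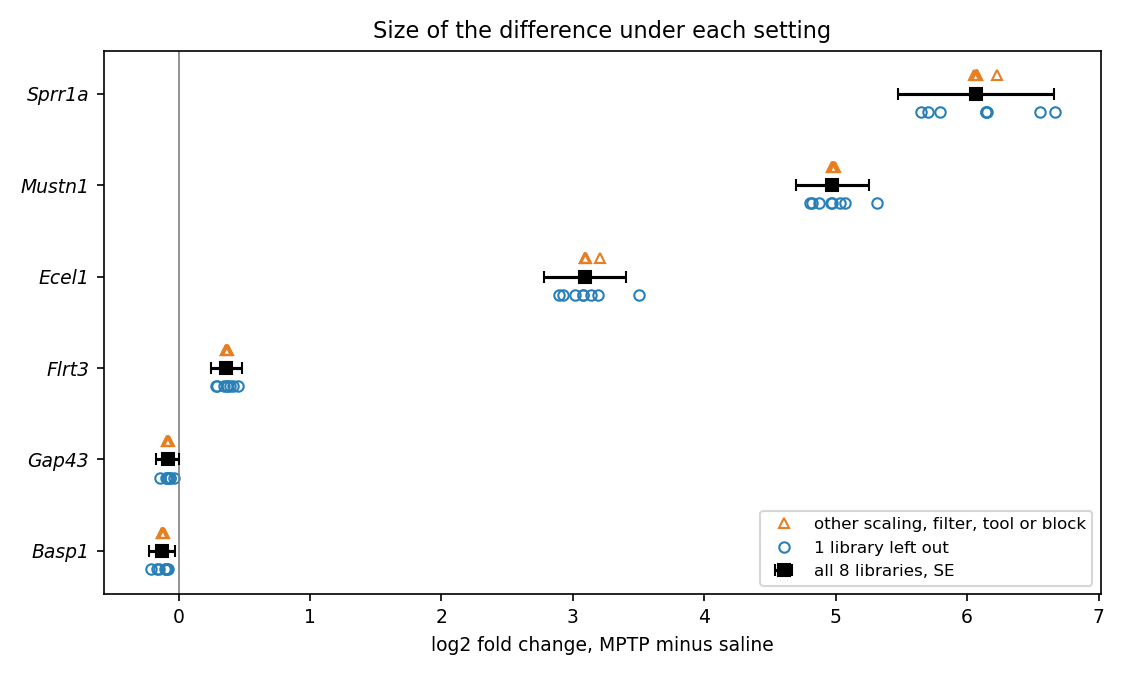
Log2 fold change of each gene, MPTP minus saline, with all 8 libraries (square, with its SE), with each library left out in turn (circles) and with another scaling, filter, tool or the replicate block (triangles). The circles spread most for Sprr1a, over 5.65 to 6.67. No point of any gene crosses 0, but the SE bar of Gap43 does (-0.084, SE 0.087).

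Other injury-induced genes were taken from a list of 40, 34 of which had enough counts to be tested. Over all genes tested, edgeR called 12 higher in MPTP (0.075%) and 5 lower (0.0313%), and 3 of the 34 listed genes (8.82%) were among the 12. These were the transcription factor Atf3, its partner Jun and Stmn4, a regulator of microtubules of the stathmin family. The list was drawn up with earlier results of these data known, so it is not independent evidence of a direction.

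Atf3 had 659, 472, 498 and 572 counts in MPTP and 2, 1, 1 and 9 counts in saline (log2 fold change 7.06, SE 0.47, edgeR adjusted p = 5.1e-07). Like Sprr1a, Atf3 passed the filter on low counts through its MPTP libraries, since saline 1, 2 and 3 were under the cutoff of 0.147 CPM. Its adjusted p and its place among the 3 called genes carry that limit. Jun was at 39.0, 43.9, 43.9 and 44.3 CPM in MPTP and 14.4, 18.7, 16.4 and 16.3 CPM in saline (log2 fold change 1.38, SE 0.11, adjusted p = 3.0e-06). Stmn4 was at 83.5, 97.7, 84.5 and 123.2 CPM in MPTP and 51.1, 37.6, 53.4 and 50.1 CPM in saline (log2 fold change 1.02, SE 0.13, adjusted p = 0.00163). Each of the 3 kept its call in every alternative that tested it. Like the members with the higher MPTP mean, Jun and Stmn4 were highest in MPTP 4, and Atf3 was highest in MPTP 1.

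None of the other tested genes of the list passed in edgeR with 8 libraries. DESeq2 called 4 genes of the list higher, and 0.148% of all genes it tested. At an unadjusted p under 0.05 edgeR had 9 genes of the list higher, the 3 called ones included, and 0 lower. All genes tested had 4.28% higher and 4.5% lower by that rule. Tnfrsf12a, the receptor of the cytokine TWEAK, was at 5.57 ± 1.03 CPM in MPTP libraries, against 2.40 ± 0.651 CPM in saline libraries (SD, n = 4 each; log2 fold change 1.22, adjusted p = 0.165). It was called without saline 3 (adjusted p = 0.0250), and over the alternatives its adjusted p ran from 0.00217 to 0.631. Among these 9 were the neuropeptide genes Vip (log2 fold change 0.52, adjusted p = 0.483) and Adcyap1 (0.39, adjusted p = 0.562) and the neurosecretory protein gene Vgf (0.55, adjusted p = 0.415). The neuropeptide genes Gal and Npy, which injured sensory neurons of rodents make, had log2 fold changes of 0.92 (adjusted p = 0.722) and -0.07 (adjusted p = 0.981), and the neurotensin gene Nts had -0.02 (adjusted p = 0.991). Arg1, Nppb, Il6 and Ankrd1 each averaged under 0.28 CPM in both groups. The median log2 fold change of the list was 0.31, with 24 genes above 0 and 10 below, and it was 0.37 without saline 3.

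Growth cone proteins other than Gap43 and Basp1 were compared as a list of 34 genes, all of them tested. None passed in edgeR or in DESeq2 with 8 libraries, and 3 higher and 2 lower ones had an unadjusted p under 0.05, where all genes tested had 4.28% higher and 4.5% lower. Without saline 3 edgeR called Map1b, a microtubule-associated protein, lower (log2 fold change -0.37, adjusted p = 0.0315). With 8 libraries Map1b was at 1421 ± 32.7 CPM in MPTP libraries, against 1751 ± 220.0 CPM in saline libraries (SD, n = 4 each; log2 fold change -0.30, adjusted p = 0.415). Rtn4, the gene of Nogo, had a log2 fold change of -0.24 (adjusted p = 0.443), Marcksl1, a relative of Marcks, 0.33 (adjusted p = 0.448), and L1cam, an adhesion molecule, 0.20 (adjusted p = 0.491). Stmn2, a stathmin of growth cones, was at 719.1 ± 76.1 CPM in MPTP libraries, against 764.1 ± 143.6 CPM in saline libraries (SD, n = 4 each; adjusted p = 0.867). Log2 fold changes of the 34 genes ran from -0.34 to 0.33 with a median of -0.04, and the median was -0.08 without saline 3.

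The list of GAP43 partners held genes of proteins that bind or modify GAP43, and some other genes. Nrgn and Pcp4 in it encode other calmodulin-binding proteins, and Wt1 was too low to test. The list numbered 16 genes, and 15 were tested. None passed in edgeR or in DESeq2 with 8 libraries, and 3 had an unadjusted p under 0.05, all with the lower level in MPTP (4.5% of all genes tested were lower by that rule). Without saline 3 edgeR called Prkca, a protein kinase C, lower (log2 fold change -0.56, adjusted p = 0.00613). With 8 libraries Prkca had a log2 fold change of -0.42 (adjusted p = 0.415), Pcp4, a small calmodulin-binding protein, -0.28 (adjusted p = 0.475), Ppp3cb, a calcineurin subunit, -0.21 (adjusted p = 0.506) and Calm3, a calmodulin gene, -0.16 (adjusted p = 0.574). The median of the list was -0.12, with 4 genes above 0 and 11 below, and it was -0.17 without saline 3.

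**Figure D4:**
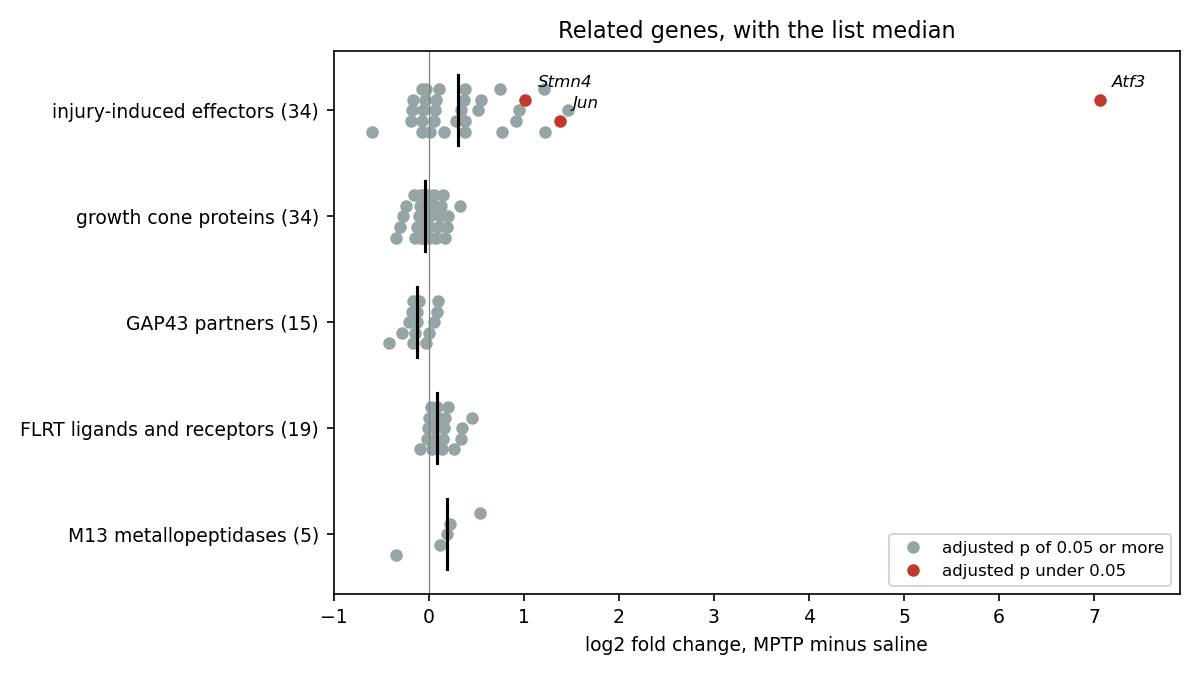
Log2 fold change, MPTP minus saline, of the related genes in 5 lists (the number of genes tested stands in brackets, and the 6 members are left out). Red points have an adjusted p under 0.05 in edgeR over all genes tested, grey points do not, and each black line is the median of its list. The red points are Atf3, Jun and Stmn4, and the growth cone list lies within -0.34 to 0.33.

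Genes with the most similar pattern were found by the root mean square difference of mean-centred log2 CPM over the 8 libraries, where a small value means a like pattern. Nearest to Sprr1a was Atf3 (0.891), followed by Mustn1 (1.14) and the neuropeptide gene Nms (1.70). Nearest to Mustn1 were Mmp12, a macrophage metalloelastase (0.735), Ecel1 (1.10) and Sprr1a. Nearest to Ecel1 were Nms (0.451), Cd68, a lysosomal marker of macrophages (0.668), and the kinetochore gene Ska1 (0.811). The measure counts the difference between groups, so genes with a like difference come out near each other.

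Some of these neighbours were read very few times. Mmp12 had 104, 35, 103 and 146 counts in MPTP and 4, 4, 0 and 0 counts in saline, and Ska1 had 15 to 44 counts in MPTP and 1 to 5 in saline. Mmp12 and Ska1 passed the filter on low counts through their MPTP libraries, since every saline library was under the cutoff of 0.147 CPM. Nms was at 2.05, 2.09, 2.78 and 3.63 CPM in MPTP and 0.245, 0.194, 0.508 and 0.400 CPM in saline, and Cd68 at 1.51, 1.51, 1.78 and 2.72 CPM in MPTP and 0.504, 0.299, 0.635 and 0.380 CPM in saline. Both were highest in MPTP 4, as were Sprr1a, Mustn1 and Ecel1. The 11 markers of microglia and macrophages, Cd68 included, summed to 32.3 to 41.7 CPM in MPTP and 25.1 to 38.8 CPM in saline. The top saline value was that of saline 3, and saline 1, 2 and 4 were at 25.1 to 34.2 CPM, still overlapping MPTP. Of the 11 markers 7 had a log2 fold change above 0. Of the MPTP libraries MPTP 4 had the lowest sum, 32.3 CPM. The marker P2ry12 carried most of that sum, at 19.8 CPM in MPTP 4. Its mean was 20.8 CPM in MPTP and 21.8 CPM in saline. In edgeR with 8 libraries Mmp12 was called higher (log2 fold change 5.29, adjusted p = 0.0213), a call lost in 5 of 13 alternatives. Its adjusted p carries the limit of the filter. Cd68 was not called (2.04, adjusted p = 0.169). Without saline 3 Cd68 was called (2.25, adjusted p = 0.0274), where 0.853% of all genes tested were called higher. C1qc averaged 2.43 CPM in MPTP and 1.175 CPM in saline (edgeR adjusted p = 0.4875). Itgam averaged 1.03 CPM in MPTP and 0.470 CPM in saline (edgeR adjusted p = 0.588). Within MPTP, Itgam was lowest in MPTP 4, at 0.596 CPM, while Cd68 and Mmp12 were highest there. The part of macrophage RNA in the levels of the members was not tested.

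Flrt3, Gap43 and Basp1 had closer neighbours, since most genes differ little between these libraries. Flrt3 was nearest to Rasgef1c (0.0785), Dhodh (0.0906) and Timm44 (0.0941). Gap43 was nearest to Atf2 (0.0256), Dlg3 (0.0281) and Slc30a9 (0.0287), and Basp1 to Prdx3 (0.0331), Hint1 (0.0386) and Cops5 (0.0414). Prdx3 was at 73.2, 81.8, 74.9 and 85.3 CPM in MPTP and 91.0, 95.3, 73.5 and 91.4 CPM in saline, with saline 3 low as for Basp1.

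The remaining marker lists describe what other RNA the libraries held. Astrocyte markers (10 genes) summed to 387.9 to 457.1 CPM in MPTP and 320.3 to 529.1 CPM in saline, and endothelial markers (10 genes) to 10.1 to 17.0 CPM in MPTP and 9.74 to 21.3 CPM in saline. Serotonergic markers (5 genes) summed to 47.9 to 63.5 CPM in MPTP and 32.3 to 72.0 CPM in saline, GABAergic markers (6 genes) to 380.8 to 483.5 CPM in MPTP and 367.1 to 565.1 CPM in saline, and glutamatergic markers (5 genes) to 83.5 to 106.6 CPM in MPTP and 69.2 to 111.8 CPM in saline. In all 5 lists saline 3 was the highest library, and in none did the groups separate. Without saline 3 the saline maxima were 365.6 CPM for astrocyte and 45.8 CPM for serotonergic markers, below every MPTP library, while the other 3 lists still overlapped. Their part in the levels of the members was not tested. Sprr1a and Mustn1 in saline 3 were at 0.159 and 0.476 CPM, within the range of the other saline libraries, and Ecel1 was at 2.10 CPM, the highest of them.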

How the data were processed

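The deposited file is a table of raw counts for each Entrez gene, with 1 column for each of 8 libraries, all matched to samples by title. The submitters' processing notes name TopHat2 2.0.8 and mm10. How reads were assigned to genes, on which annotation and with which strand setting, is not given in the sources used here. Per the labels' protocols, amplified cDNA was sequenced as single-end reads of 100 bases and no molecular identifiers are mentioned. Reads may thus be copies of the same molecule, and intervals cover the counting error of reads only, not of molecules. Replicates are numbered in the titles, and nothing says that they came from separate animals, so p-values may measure technical spread alone.

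Counts were analysed with edgeR 4.0.16 in R 4.3.3 (TMM scaling, filterByExpr, robust quasi-likelihood F-test, no covariate), with Benjamini-Hochberg adjustment over all 15999 genes and a threshold of 0.05. The SE is the size of the log2 fold change over the square root of F, and a prior count of 2 was added for log2 CPM. The test was checked on simulated counts. Alternatives were scaling by RLE or the upper quartile, a mean CPM of 5 or no filter, DESeq2 1.42.0, the replicate number as a block and leaving out each library. Symbols turned into dates (27) were restored by Entrez identifier. The text names the 6 members, their family relatives, up to 4 genes of smallest p per list, the 3 genes of nearest pattern to each member, and markers beside them. Gal, Npy, Nts, Vip, Adcyap1, Vgf, Myh1, Myh4, Mylpf, Arg1, Nppb, Il6, Ankrd1 and Stmn2 were named after their values were seen, as were the relatives and markers singled out at 0. So were Tgm3, Krt1, Krt10, Tnnt3, P2ry12, Itgam, C1qc, Nrgn and Wt1. The members and lists were chosen with earlier results of these data known.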

Additional observations from a re-analysis of the deposited data

Results flagged for a closer look

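In groups of 4 libraries, a library was singled out where its gap to the nearest one, divided by the range of the group, was above Dixon's critical value, which chance passes in about 1 of 20 groups. The 6 genes in both groups made 12 checks, and 2 libraries were singled out. Sprr1a in MPTP 4 was at 8.97 CPM, with 0.948 of the group's range between it and the next library. Basp1 in saline 3 was at 398.7 CPM, with 0.895 of the range between it and the next.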

How the results depend on the processing

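The number of genes called over the whole table depended most on saline 3. Leaving out 1 library each gave 8 to 138 higher and 0 to 159 lower genes, with both maxima without saline 3. DESeq2 called 25 higher and 31 lower, and a mean CPM of at least 5 left 7 higher. Leaving out 1 library gave 0 to 1 lower growth cone genes, 0 to 1 lower GAP43 partners and 0 to 2 higher FLRT partners, again with the maxima without saline 3. The other list counts stayed within 1.5 times, and the log2 fold change of each member moved in every setting by less than the pooled within-group SD of its log2 CPM. The largest move was 0.60 for Sprr1a (SD 1.08), 0.41 for Ecel1 (SD 0.56), 0.34 for Mustn1 (SD 0.45), 0.06 for Gap43 (SD 0.10), 0.08 for Basp1 (SD 0.16) and 0.09 for Flrt3 (SD 0.20), and for Sprr1a, Ecel1 and Mustn1 it was above the SE of the fold change. With the replicate block, edgeR called 10 higher and 4 lower genes and 3 injury-induced genes, and Sprr1a, Mustn1 and Ecel1 had log2 fold changes of 6.23, 4.99 and 3.21. Same-numbered libraries did not deviate together (correlations of -0.12 to 0.04). Whether they were collected as pairs is not stated, and such correlations cannot decide it. Counts limit Sprr1a in saline, where 21 reads in all set the size of its difference.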
